A study of Mus musculus with 12 samples.

Results

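The core circadian clock genes of the liver were described in 6 mice: 2 Control, 2 Sham and 2 VSG. The set held 10 genes chosen by name: Arntl (also called Bmal1), Clock, Npas2, Per1, Per2, Per3, Cry1, Nr1d1, Nr1d2 and Dbp. Their 16 RefSeq transcripts, of 34933 in the expression table, were summed to 1 value per gene, which gave 10 of 24910 genes. Of the 10, 8 had an FPKM (fragments per kilobase of transcript, scaled to the mapped fragments of the library) of at least 1 in at least 2 mice and entered the test over 9869 such genes. Arntl reached this level in 1 mouse and Npas2 in none.

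All mice were C57BL/6J wild-type males housed under 12 h of light and 12 h of dark, and whole liver was sequenced. Sham and VSG mice ate a high-fat diet with 60% of its energy from fat from an age of 8 weeks, for 14 weeks before surgery and 14 weeks after it, apart from a short recovery on liquid food. In VSG (vertical sleeve gastrectomy) about 80% of the stomach was removed, while Sham surgery isolated the stomach and pressed it without resection. Control mice ate standard chow for 28 weeks and had no surgery, so that the comparison with Control joins the diet and an operation. The hour of collection and the feeding state at collection are not given in the sources used here, and their part in the values below was not tested.

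The mammalian clock is a feedback loop of transcription. ARNTL pairs with CLOCK or NPAS2, binds E-boxes in DNA and activates the Per and Cry genes, Nr1d1, Nr1d2 and Dbp, and the PER and CRY proteins return to silence that pair. NR1D1 and NR1D2 repress Arntl through RORE sites, and DBP, a PAR bZIP activator, works through D-boxes. In mouse liver the transcripts of Arntl, Clock and Npas2 are known to be high from late night to early morning, those of Nr1d1, Dbp and the Per genes from midday to early night, and that of Cry1 later in the night.

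FPKM values carry no read counts, and the number of reads behind each mouse is unknown. From the spacing of the lowest values, the depth relative to the first Control mouse was 0.676 to 1.56, lowest in Sham mouse 1 and highest in VSG mouse 1, and 8682 to 9236 genes had an FPKM of at least 1. Of the genes tested, 16.0% were listed at 0 in a mouse. Among the ribosomal protein transcripts, which every cell uses, 24 of 99 were listed at 0 in all mice, so a 0 may be a failed estimate and is given here as listed. The liver markers Ttr, Apoa1, Cps1 and Tat had a summed FPKM of 8475 to 16713 over the mice. Without Apoa1, the most abundant, their sums did not overlap between groups. They were at 5279 to 5596 (Control), 1314 to 3622 (Sham) and 4020 to 4523 (VSG), lowest in Sham mice. Tat, also a glucocorticoid target described below, was at 1376 and 1477 (Control), 210 and 188 (Sham) and 233 and 283 (VSG). Ttr overlapped between Control mice and either other group, and Cps1 between Control and VSG mice. The 6 Kupffer cell markers summed to an FPKM of 11.4 to 16.7 (Control), 35.0 to 37.6 (Sham) and 36.5 to 144 (VSG), and the 4 neutrophil markers to 5.33 to 14.0, 41.5 to 44.8 and 16.7 to 21.7, with Ly6g listed at 0. The 5 cholangiocyte markers summed to 30.7 to 32.7, 62.9 to 186 and 30.9 to 145, of which all but 2.21 to 3.36, 2.53 to 4.57 and 1.63 to 2.01 was Spp1. Sums were lowest in Sham mice for the 6 stellate cell markers (45.8 to 46.9, 17.0 to 29.8 and 49.2 to 64.3), but without Dcn, the most abundant, they overlapped between Control (5.22 to 5.25) and Sham mice (3.17 to 5.98). The 6 markers of sinusoidal endothelium summed to 11.4 to 34.5, 4.87 to 7.15 and 20.5 to 21.4. Without Clec4g, their most abundant, they were at 7.05 to 8.41 in Control mice and overlapped between Sham (2.68 to 3.22) and VSG mice (2.86 to 3.12). Markers of lymphocytes, pancreas and adipocytes summed to at most 2.05, 3.27 and 0.0357. Their part in the results below was not tested. In whole liver, fewer cells of a type and less RNA per cell cannot be told apart.

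Nr1d1 and Dbp were higher in both VSG mice than in every other mouse, and Per3 was lower in both. Cry1 and Per2 were lower in both VSG mice than in both Control mice. Of all genes tested, 28.3% did not overlap between VSG and Sham mice and 48.5% did not between VSG and Control mice. At an FDR of 10% none of these differences of clock genes was called. Between Sham and Control mice, limma called 0 of 8 clock genes, and 1 had an unadjusted p under 0.05. Over all genes 0.284% were called and 10.9% had an unadjusted p under 0.05. Between VSG and Sham mice, limma called 0 of 8, and 1 had an unadjusted p under 0.05, against 0.0507% and 4.85% of all genes. Between VSG and Control mice, limma called 0 of 8, and 3 had an unadjusted p under 0.05, against 0.284% and 9.56% of all genes. The 3 comparisons share mice and are not independent of each other. With 2 mice against 2, an exact permutation test of a single gene cannot give a two-sided p below 0.333.

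**Figure D1:**
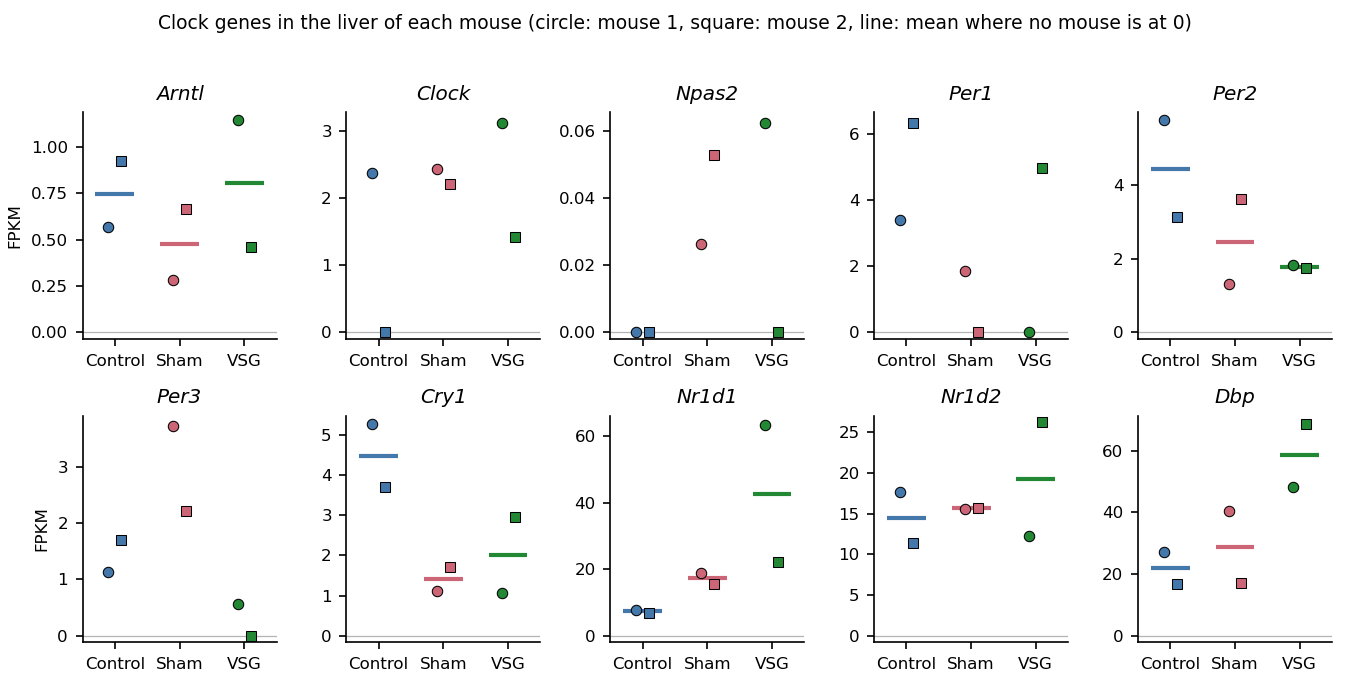
FPKM of the 10 clock genes in each liver, with 1 panel per gene and its own axis from 0, a circle for mouse 1, a square for mouse 2 and a line for the group mean where no mouse is listed at 0. Nr1d1 runs from 6.84 in a Control mouse to 63.3 in VSG mouse 1, while Arntl stays at or below 1.14 in every mouse.

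Arntl encodes the bHLH-PAS protein without which the clock stops. Its start site carries a match to the core of the RORE, the element through which NR1D proteins repress it. The match starts 76 bases after the start site, inside the first exon, on the plus strand of chromosome 7 (NCBIM37, the assembly named mm9). It is shown here because it is the one match to this motif among the stretches printed, with the 7 bases of the RORE core in capitals and 10 bases on either side, at chr7:120351045-120351071.
Arntl start site: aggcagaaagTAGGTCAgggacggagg
The FPKM of Arntl was 0.566 and 0.923 in Control mice, 0.285 and 0.663 in Sham mice, and 1.14 and 0.461 in VSG mice. All 3 groups overlapped, and both the highest and the next to lowest mouse were VSG mice. The means were 0.745 ± 0.252 (Control), 0.474 ± 0.268 (Sham) and 0.803 ± 0.483 (VSG), given with the SD and n = 2. Mouse 1 of the Sham group, the lowest, was also the mouse of lowest relative depth, and mouse 1 of the VSG group, the highest, that of highest relative depth. The part of depth in this order was not tested.

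Clock encodes the partner of ARNTL. Its FPKM was 2.37 and 0 in Control mice, 2.43 and 2.21 in Sham mice, and 3.12 and 1.42 in VSG mice. A single mouse, a Control, was listed at 0, and the other 5 mice lay within 1.42 to 3.12, so the groups overlapped. The limma log2 fold change (here and below on the scale of log2(FPKM + 1), which understates the change of low genes) was 0.86 ± 0.64 (SE) in Sham against Control mice, with an adjusted p of 0.654. Without the Control mouse listed at 0, this difference was -0.02. Npas2 encodes a second partner of ARNTL. Its FPKM was listed at 0 and 0 in Control mice, 0.0262 and 0.0530 in Sham mice, and 0.0626 and 0 in VSG mice. The 3 values above 0 were below 0.1.

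The period genes encode the PER proteins that carry the negative limb of the loop. Per1, on the plus strand of chromosome 11, has 2 E-boxes upstream of its first start site, at positions -334 and -150 (the first base of the motif, counted along the gene). They lie inside a FAIRE peak in all 3 groups. FAIRE-seq, in which formaldehyde crosslinking leaves open DNA in solution, marks accessible chromatin, and each group has 1 deposited peak list that combines its 2 mice. The stretch at chr11:68908375-68908584 is shown because it holds both of these E-boxes (CACGTG, in capitals).
Per1 upstream: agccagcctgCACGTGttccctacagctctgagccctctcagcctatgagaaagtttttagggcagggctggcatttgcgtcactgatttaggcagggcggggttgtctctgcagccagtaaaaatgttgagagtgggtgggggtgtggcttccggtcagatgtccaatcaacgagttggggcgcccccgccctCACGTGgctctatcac
Per1 had an FPKM of 3.41 and 6.33 in Control mice, 1.86 and 0 in Sham mice, and 0 and 4.96 in VSG mice. Both Control mice lay above both Sham mice, while VSG mice spanned nearly the whole range. The second of its transcripts had a value above 0 in VSG mouse 2 alone, at an FPKM of 2.20. With 2 mice listed at 0, the log2 fold change of -1.75 ± 0.997 (SE) in Sham against Control mice had an adjusted p of 0.576. It was -2.51 without Sham mouse 1, -0.99 without Sham mouse 2 and -3.42 with a pseudocount of 0.1.

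Per2 on chromosome 1 and Per3 on chromosome 4 both lie on the minus strand and carry D-boxes upstream of the start site, 1 at position -119 in Per2 and 2 at positions -158 and -205 in Per3. These stretches are printed along each gene to show the shared 8 bases TTATGTAA (in capitals), through which DBP and its relatives act. They lie at chr1:93355994-93356051 and chr4:150418915-150418989, inside a FAIRE peak in every group.
Per2 upstream: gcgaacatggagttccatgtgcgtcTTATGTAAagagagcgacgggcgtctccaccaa
Per3 upstream: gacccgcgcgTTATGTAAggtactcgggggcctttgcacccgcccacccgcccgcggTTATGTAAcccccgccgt
Per2 had an FPKM of 5.74 and 3.12 in Control mice, 1.30 and 3.62 in Sham mice, and 1.82 and 1.74 in VSG mice. Both VSG mice were below both Control mice, and Sham mice overlapped with either group. The means were 4.43 ± 1.85 (Control), 2.46 ± 1.64 (Sham) and 1.78 ± 0.0545 (VSG), given with the SD and n = 2. In VSG against Control mice the log2 fold change was -0.92 ± 0.44 (SE) with an adjusted p of 0.60 in limma, and -0.57 without Control mouse 1.

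Per3 is a period gene that the core loop can run without. Its FPKM was 1.13 and 1.71 in Control mice, 3.72 and 2.21 in Sham mice, and 0.558 and 0 in VSG mice. The 3 groups did not overlap, with Sham highest and VSG lowest. The log2 fold change was 0.70 ± 0.36 (SE) in Sham against Control mice (unadjusted p = 0.114, adjusted p = 0.550, limma). It was -1.64 ± 0.36 in VSG against Sham mice (unadjusted p = 0.00637, adjusted p = 0.739) and -0.94 ± 0.36 in VSG against Control mice (unadjusted p = 0.0487, adjusted p = 0.520). Per3 was the clock gene with the smallest p between VSG and Sham mice. The direction in these comparisons was the same when any 1 mouse was left out, but the size moved, to 0.42 in Sham against Control mice without Sham mouse 1 and to -0.62 in VSG against Control mice without VSG mouse 2. With a pseudocount of 0.1 the differences from VSG to Sham and to Control mice were -3.53 and -2.54. At these low levels the 3 transcripts of Per3 were not listed in the same mice: NM_011067 held the whole value in Sham and VSG mice, and the other two had values above 0 in 1 Control mouse each. With the highest transcript alone, the log2 fold change was 1.06 in Sham against Control mice (unadjusted p = 0.0386, adjusted p = 0.441, limma) and -0.58 in VSG against Control mice (unadjusted p = 0.188, adjusted p = 0.716).

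Cry1 encodes the cryptochrome that represses ARNTL and CLOCK most strongly late in the cycle. Its upstream sequence on the minus strand of chromosome 10 holds an E-box at position -60 and, on the other strand, the E′-box CACGTT at position -79, which reads AACGTG along the gene. Both are in capitals in the stretch at chr10:84647844-84647888.
Cry1 upstream: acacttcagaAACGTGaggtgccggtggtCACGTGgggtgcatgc
Cry1 had an FPKM of 5.26 and 3.69 in Control mice, 1.11 and 1.70 in Sham mice, and 1.07 and 2.94 in VSG mice. Control mice were above all other mice, and Sham and VSG mice overlapped. Means were 4.48 ± 1.11 (Control), 1.41 ± 0.417 (Sham) and 2.01 ± 1.32 (VSG), given with the SD and n = 2, so that the Sham mean was 0.315 times the Control mean. The log2 fold change was -1.18 ± 0.40 (SE) in Sham against Control mice (unadjusted p = 0.0320, adjusted p = 0.415, limma) and -0.92 ± 0.40 in VSG against Control mice (adjusted p = 0.573). Among the clock genes it had the smallest p between Sham and Control mice. Neither direction changed when any 1 mouse was left out, but the difference from VSG to Control mice moved to -0.46 when VSG mouse 1 was left out and to -1.39 when VSG mouse 2 was.

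Nr1d1 and Nr1d2 encode the REV-ERB nuclear receptors that repress Arntl. Nr1d1, on the minus strand of chromosome 11, has a pair of E-boxes 15 bases apart in an intron at positions 1454 and 1469. Upstream of its start site it has an E-box at position -367 and an E′-box at position -354. Nr1d2, on the minus strand of chromosome 14, has 3 E-boxes and a D-box within an intron between positions 449 and 597, where the D-box reads TTACATAA along the gene. These stretches are shown because E-boxes are the sites of ARNTL and because a FAIRE peak covers each of them in every group. They lie at chr11:98635163-98635203, chr11:98636986-98637024 and chr14:19071029-19071202.
Nr1d1 intron: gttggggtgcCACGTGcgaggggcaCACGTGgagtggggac
Nr1d1 upstream: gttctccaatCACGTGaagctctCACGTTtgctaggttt
Nr1d2 intron: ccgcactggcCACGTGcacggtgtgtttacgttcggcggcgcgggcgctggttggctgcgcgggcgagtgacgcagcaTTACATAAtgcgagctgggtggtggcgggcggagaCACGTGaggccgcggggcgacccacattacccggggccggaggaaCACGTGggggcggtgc
Nr1d1 had an FPKM of 7.88 and 6.84 in Control mice, 19.0 and 15.6 in Sham mice, and 63.3 and 22.1 in VSG mice. The groups did not overlap, with Control lowest and VSG highest, and VSG mouse 1 was 2.87 times VSG mouse 2. Mean levels were 7.36 ± 0.729 (Control), 17.3 ± 2.34 (Sham) and 42.7 ± 29.2 (VSG), given with the SD and n = 2.

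Nr1d1 thus was 2.35 times higher in Sham than in Control mice by its means, with a log2 fold change of 1.13 ± 0.51 (SE) and an adjusted p of 0.510 in limma. In VSG against Control mice the ratio of means was 5.80, the log2 fold change 2.21 ± 0.51 (unadjusted p = 0.00767, adjusted p = 0.348). Between VSG and Sham mice the ratio was 2.47, the log2 fold change 1.08 ± 0.51 (adjusted p = 0.944). VSG mouse 1 carried much of the difference from VSG to Sham mice, which was 0.34 on the log2 scale without it and 1.82 without VSG mouse 2. The difference from VSG to Control mice was 1.47 and 2.95 without mouse 1 and mouse 2 of the VSG group, respectively. Over all alternatives, the lowest adjusted p of Nr1d1 was 0.158, in VSG against Control mice without VSG mouse 2. Exons of Nr1d1 share 263 bases with those of Thra on the opposite strand, and reads of this stretch cannot be told apart without strand. Thra was listed at 0 in 4 mice and at an FPKM of 2.84 and 3.40 in Sham mouse 2 and VSG mouse 2, and the part of shared reads in either gene was not tested.

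Nr1d2 did not follow its paralog. Its FPKM was 17.7 and 11.4 in Control mice, 15.6 and 15.7 in Sham mice, and 12.3 and 26.3 in VSG mice. The groups overlapped, the Sham mice were alike, and VSG mouse 2, not mouse 1, was highest. Means were 14.5 ± 4.41, 15.6 ± 0.0844 and 19.3 ± 9.91 (SD, n = 2) in Control, Sham and VSG mice, with log2 fold changes of 0.13 ± 0.42 (SE) for Sham against Control and 0.33 ± 0.42 for VSG against Control (adjusted p = 0.929 and 0.840, limma). The ratio of Nr1d1 to Nr1d2 within a mouse was 0.446 and 0.599 in Control mice, 1.22 and 0.996 in Sham mice, and 5.14 and 0.839 in VSG mice.

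Dbp encodes a PAR bZIP activator that carries the rhythm from the clock to genes of liver metabolism. It lies on the plus strand of chromosome 7 and has, in an intron, 2 E-boxes at positions 2624 and 2737 and an E′-box between them at position 2686 (AACGTG along the gene). The stretch at chr7:52963072-52963210 overlaps no coding exon but does overlap a transcript that keeps the intron. It is printed because it holds both forms of E-box inside a FAIRE peak of every group.
Dbp intron: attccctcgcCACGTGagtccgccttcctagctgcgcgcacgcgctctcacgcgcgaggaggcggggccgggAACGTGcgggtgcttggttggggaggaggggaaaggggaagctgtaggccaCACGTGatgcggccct
Dbp had an FPKM of 27.3 and 16.9 in Control mice, 40.4 and 17.1 in Sham mice, and 48.2 and 68.8 in VSG mice. Both VSG mice were above all other mice, while Sham and Control mice overlapped and the Sham mice differed 2.36 times. Means were 22.1 ± 7.36 (Control), 28.8 ± 16.4 (Sham) and 58.5 ± 14.6 (VSG), given with the SD and n = 2. The log2 fold change was 1.38 ± 0.49 (SE) in VSG against Control mice (unadjusted p = 0.0381, adjusted p = 0.494, limma), 1.10 ± 0.49 in VSG against Sham mice (adjusted p = 0.944) and 0.29 ± 0.49 in Sham against Control mice (adjusted p = 0.852). Without Sham mouse 1 the last difference was -0.31, and it was 0.88 without Sham mouse 2. The difference from VSG to Sham mice was 1.69 and 0.50 without the same mice, respectively. Exons of Dbp share 491 bases with those of Sphk2, a sphingosine kinase gene on the opposite strand. Sphk2 had an FPKM of 14.3 and 13.9 in Control, 24.7 and 6.13 in Sham, and 25.4 and 25.7 in VSG mice, so the order of the Sham mice was that of Dbp, and the part of shared reads in either gene was not tested.

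**Figure D2:**
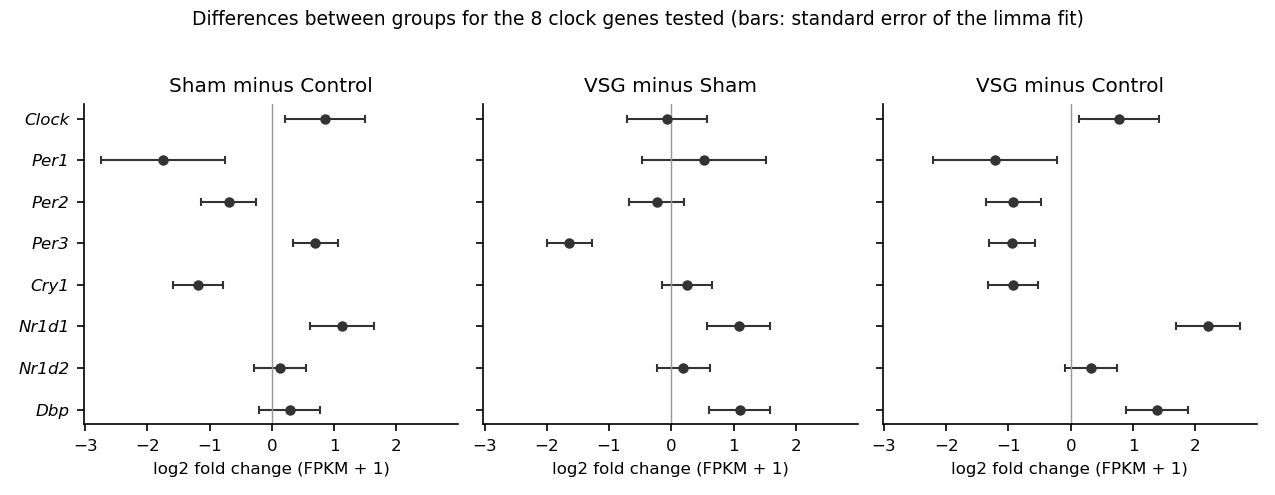
Log2 fold change on the scale of log2(FPKM + 1) for the 8 clock genes tested, in 3 panels for Sham minus Control, VSG minus Sham and VSG minus Control, with bars of 1 standard error from limma. Nr1d1 lies at 1.13, 1.08 and 2.21, Per3 at 0.70, -1.64 and -0.94, and no gene reached an FDR of 10%.

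Across the 8 genes tested, the signs were mixed within each comparison. These genes are known to peak at different times of day, and the counts and medians here join them. In Sham against Control mice 5 genes were above 0 and 3 below, with a median log2 fold change of 0.21 against 0.04 over all genes. In VSG against Sham mice 5 were above and 3 below (median 0.23, all genes 0.08), and in VSG against Control mice 4 were above and 4 below (median -0.30, all genes 0.13). Groups did not overlap for 4 of 8 clock genes (50%) in Sham against Control mice, 3 (37.5%) in VSG against Sham mice and 5 (62.5%) in VSG against Control mice. The shares over all genes tested were 45.8%, 28.3% and 48.5%, and the clock genes lay near these.

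Genes known to peak by day were set against those known to peak late at night within each mouse, since a difference in time of day would move them apart in opposite directions. Dbp exceeded Arntl in every mouse. Arntl did not pass the filter, with an FPKM of 0.285 to 1.14, so ratios to it rest on low values. The part of this in their spread, and that of depth, was not tested. The ratio of Dbp to Arntl was 48.2 and 18.3 in Control mice, 142 and 25.8 in Sham mice, and 42.2 and 149 in VSG mice. The highest mice were Sham mouse 1 and VSG mouse 2, the groups overlapped, and mice of the same group differed by 2.64, 5.49 and 3.54 times in the Control, Sham and VSG groups. Nr1d1 to Arntl gave 13.9 and 7.41 in Control mice, 66.6 and 23.6 in Sham mice, and 55.4 and 47.9 in VSG mice. By this ratio both Control mice were below all mice on the high-fat diet, and the Sham and VSG mice overlapped.

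Other pairs ordered the mice differently. The ratio of Dbp to Per2 was 4.75 and 5.40 in Control mice, 31.0 and 4.74 in Sham mice, and 26.5 and 39.5 in VSG mice, so that Sham mouse 2 lay with the Control mice. The ratio of Nr1d1 to Cry1 was 1.50 and 1.86 in Control mice, 17.0 and 9.19 in Sham mice, and 59.2 and 7.51 in VSG mice, with both Control mice lowest. In the mean of log2(FPKM + 1), the 6 day genes (the Per genes, Nr1d1, Nr1d2 and Dbp) exceeded the 3 night genes (Arntl, Clock and Npas2) by 2.23 and 2.54 in Control mice, 2.39 and 1.87 in Sham mice, and 1.84 and 2.64 in VSG mice. Of these night genes only Clock passed the filter. The difference of day over night genes did not separate the groups. It spanned 0.797 between mice, and 2.56 with a pseudocount of 0.1, and its means include values listed at 0. With only the 4 day genes and 1 night gene, Arntl, that were listed at 0 in no mouse, it was 3.09 and 2.26 in Control mice, 3.37 and 2.89 in Sham mice, and 3.11 and 3.67 in VSG mice. Here both VSG mice were above both Control mice, Sham mice overlapped with either group, and the mice stood in another order. Leaving aside values listed at 0, every day gene was above Arntl in each mouse except Per3 in VSG mouse 1.

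**Figure D3:**
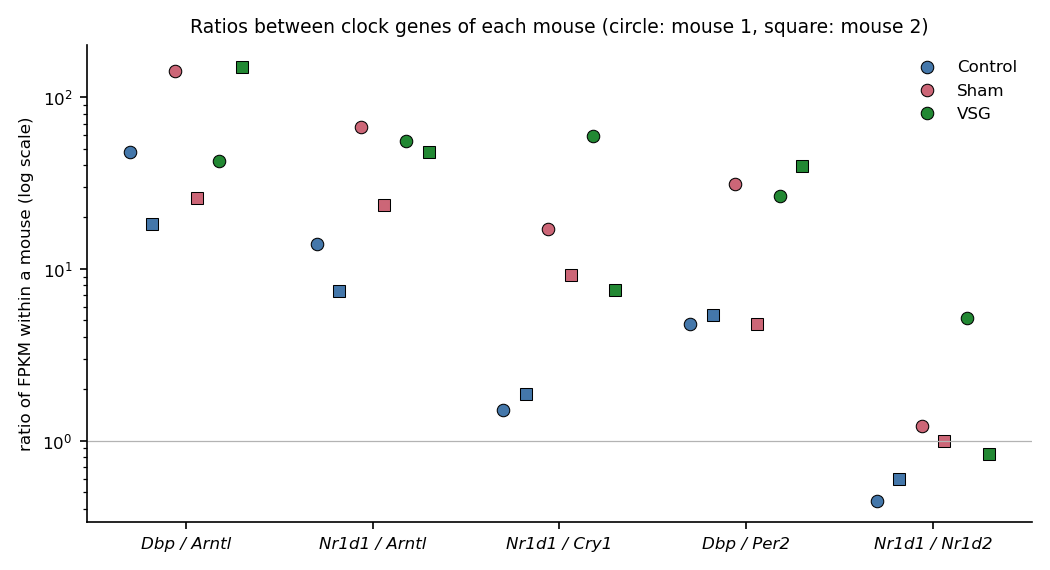
Ratio of the FPKM of 2 clock genes within a mouse, on a log axis, for 5 pairs, with a circle for mouse 1, a square for mouse 2 and the group in colour. The ratio of Dbp to Arntl overlaps between groups and runs from 18.3 to 149, while that of Nr1d1 to Cry1 is 1.50 and 1.86 in Control mice and at least 7.51 in the others. Arntl, at an FPKM of 0.285 to 1.14, did not pass the filter.

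The pairs moved together over the 6 mice to different degrees. Pearson's r of log2(FPKM + 1), given as a description over 6 mice that include all groups, was -0.26 between Dbp and Arntl, 0.26 between Nr1d1 and Arntl, 0.66 between Dbp and Nr1d1 and 0.00 between Nr1d1 and Nr1d2. Between Nr1d1 and Cry1 it was -0.77 and between Per2 and Cry1 0.73.

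The range over mice was wider for the clock genes than for the genes tested as a whole. The median range over the 6 mice was 2.01 on the log2(FPKM + 1) scale for the 8 clock genes tested and 1.08 for all genes tested. Among genes with a median FPKM of at least 10, the range was 1.97 for 3 clock genes and 1.01 for 3573 genes. Of the 8, Clock, Per1 and Per3 were listed at 0 in a mouse. Among genes listed at 0 in no mouse, the range was 1.60 for 5 clock genes and 0.94 for 8293 genes. The gap between mice of the same group had a median of 0.62 (Control), 0.46 (Sham) and 0.85 (VSG) for the clock genes, against 0.21, 0.45 and 0.34 for all genes. Among genes listed at 0 in no mouse, this gap was 0.59, 0.36 and 0.93 for the clock genes, against 0.19, 0.41 and 0.31. Between the highest and lowest mouse, Nr1d1 differed 9.25 times, Cry1 4.92 times, Per2 4.41 times, Dbp 4.08 times, Arntl 4.02 times and Nr1d2 2.31 times.

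By its median over the 6 mice, Dbp was the most abundant clock gene at an FPKM of 33.8, above 84.9% of the genes tested. Nr1d1 (17.3) and Nr1d2 (15.6) followed, and their ranges over mice overlapped each other and that of Dbp. Per1 (2.63), Per2 (2.47), Cry1 (2.32), Clock (2.29) and Per3 (1.42) lay together with overlapping ranges, below the lowest value of Nr1d1. Arntl, at 0.615, overlapped the ranges of Per1, Cry1, Clock and Per3 but not that of Per2, and the values above 0 of Npas2 were below all values of Arntl.

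A further 18 genes of the clock were examined, of which 14 were tested. They comprise other repressors, receptors, PAR bZIP factors, kinases and ubiquitin ligases, and 0 were called in any comparison by limma, with 1 of 14 at an unadjusted p under 0.05 in each. Over all genes 0.284%, 0.0507% and 0.284% were called and 10.9%, 4.85% and 9.56% had such a p, in the order Sham against Control, VSG against Sham and VSG against Control mice. In Sham against Control mice 3 were above 0 and 11 below, with a median log2 fold change of -0.24 (52.8% of all genes were above 0). In VSG against Sham mice 9 were above and 5 below (median 0.34, 59.6% of all genes above), and in VSG against Control mice 5 were above and 9 below (median -0.28, 61.3% of all genes above). Cry2, the second cryptochrome, had an FPKM of 9.44 and 8.28 in Control, 1.67 and 5.08 in Sham, and 6.64 and 6.19 in VSG mice. Control mice were highest and the groups did not overlap, as they did not for Cry1 between Control and Sham mice.

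Among the PAR bZIP relatives of Dbp, Tef had an FPKM of 23.1 and 15.4 in Control, 23.6 and 9.66 in Sham, and 4.17 and 34.6 in VSG mice. The lowest and the highest liver were both from VSG mice. Nfil3, which represses through D-boxes, had an FPKM of 17.9 and 14.3 in Control, 2.90 and 5.65 in Sham, and 2.15 and 10.6 in VSG mice. Control mice were above all others, with a log2 fold change of -1.74 in Sham against Control mice (adjusted p = 0.457, limma). Ciart, a repressor of ARNTL and CLOCK, was at 5.86 and 2.80 in Control, 3.84 and 3.16 in Sham, and 3.34 and 9.01 in VSG mice, and overlapped between groups.

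Of 16 rhythmic genes of liver output, 14 had a log2 fold change below 0 in Sham against Control mice (median -0.94), and 15 of 16 had one above 0 in VSG against Sham mice (median 0.76). These comparisons share the Sham mice, so that a low value in Sham mice enters both. In VSG against Control mice 7 were above 0 and 9 below (median -0.10). Over all genes, 52.8%, 59.6% and 61.3% were above 0 in Sham against Control, VSG against Sham and VSG against Control mice. The 4 liver markers Ttr, Apoa1, Cps1 and Tat were all below 0 in Sham against Control mice (median -1.31). In VSG against Sham mice 3 of these markers were above 0 and 1 below (median 0.71). In VSG against Control mice 1 was above and 3 below (median -0.38). The part of this in the values of the rhythmic genes was not tested. None of the 16 was called by limma at an FDR of 10% in any comparison, and 4 had an unadjusted p under 0.05 in each, against 10.9%, 4.85% and 9.56% of all genes. Upp2, a uridine phosphorylase of liver, had an FPKM of 182 and 173 in Control, 15.9 and 5.91 in Sham, and 45.1 and 145 in VSG mice. The groups did not overlap, with Sham lowest, and the log2 fold change in Sham against Control mice was -4.05 (adjusted p = 0.192, limma). Lpin1, a phosphatidate phosphatase, had an FPKM of 91.9 and 129 in Control, 6.80 and 10.3 in Sham, and 13.4 and 5.95 in VSG mice, so that Sham and VSG mice overlapped far below Control. Gys2, liver glycogen synthase, was at 123 and 118 in Control, 60.6 and 49.8 in Sham, and 59.6 and 118 in VSG mice.

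**Figure D4:**
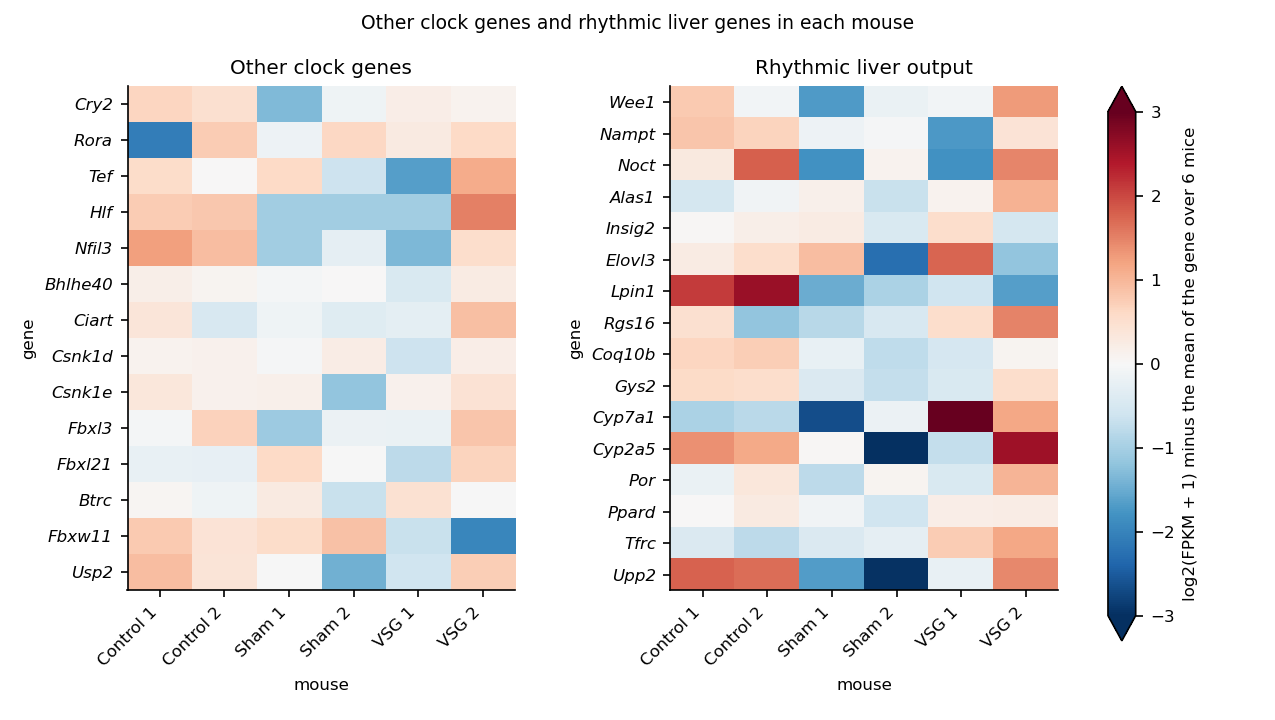
Each cell is the log2(FPKM + 1) of a gene in a mouse minus the mean of that gene over 6 mice, red above and blue below, for 14 other clock genes on the left and 16 rhythmic liver genes on the right. Lpin1 and Upp2 are high in both Control mice, and the mice of the VSG group differ from each other for Tef and Cyp2a5.

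Genes that also follow feeding, temperature and glucocorticoids were measured beside the clock genes. Of the 8 body temperature genes, which include Cirbp, Rbm3 and heat shock genes, 4 were above 0 and 4 below in each comparison, with medians of -0.04, 0.06 and -0.08 in Sham against Control, VSG against Sham and VSG against Control mice. None was called by limma (0.284%, 0.0507% and 0.284% of all genes were), and 0, 1 and 1 had an unadjusted p under 0.05, against 10.9%, 4.85% and 9.56% of all genes. Cirbp had an FPKM of 4.86 and 5.51 in Control, 3.36 and 6.28 in Sham, and 7.96 and 11.2 in VSG mice. Rbm3 was at 19.6 and 17.2, 16.8 and 31.2, and 32.8 and 41.9. Both VSG mice were above all others for each. The medians above join Cirbp and Rbm3 with the heat shock genes, which need not move alike. Of all genes, 28.3% did not overlap between VSG and Sham mice and 48.5% did not between VSG and Control mice. The 8 fasting genes had medians of -0.99, -0.16 and -0.94, the 7 feeding genes tested -0.70, 0.18 and -0.61, and the 6 glucocorticoid targets tested -1.38, 0.40 and -0.58. An unadjusted p under 0.05 was found for 2, 1 and 3 fasting genes, 2, 1 and 2 feeding genes and 2, 1 and 1 glucocorticoid targets. Of these 3 lists a single gene was called, in both comparisons with Control mice, where 0.284% of all genes were called. It was Tat, a glucocorticoid target and the tyrosine aminotransferase of liver, which was also counted among the liver markers above. It had an FPKM of 1376 and 1477 in Control, 210 and 188 in Sham, and 233 and 283 in VSG mice, and fell by 2.84 on the log2 scale in Sham against Control mice (adjusted p = 0.0445, limma) and by 2.47 in VSG against Control mice (adjusted p = 0.0679). The first call was lost without either Control mouse, without either VSG mouse, with only these groups in the fit and with the replicate number as a block, and its adjusted p ranged from 0.0342 to 0.484 over the alternatives. The second was lost without either Control mouse, without either VSG mouse, without a filter and with the block (0.0533 to 0.564). Over the alternatives the log2 fold change of Tat was -2.92 to -2.76 in Sham against Control mice. It was -2.78 to -2.33 in VSG against Control mice. Dusp1, a phosphatase that responds to glucocorticoids, had an FPKM of 26.5 and 17.1 in Control, 8.34 and 4.06 in Sham, and 25.9 and 20.4 in VSG mice. Sham mice were below all others, with log2 fold changes of -1.70 in Sham against Control mice (unadjusted p = 0.00807, adjusted p = 0.302, limma) and 1.81 in VSG against Sham mice (unadjusted p = 0.00630, adjusted p = 0.739). Per1, which also responds to them, was lower in both Sham than in both Control mice, while its VSG mice overlapped with either group. It was listed at 0 in Sham mouse 2 and in VSG mouse 1. Of the 6 glucocorticoid targets tested, 5 were below 0 in Sham against Control mice and 1, Tsc22d3, was above (0.16). The 9 immediate early genes tested had medians of -0.13, 0.89 and 1.02, and Fos was at 71.6 in VSG mouse 1 and at most 2.72 in the other mice. The mouse with this Fos level was also that with the highest Nr1d1, Arntl and Clock, and the part of this in their levels was not tested.

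At the chromatin level, all 10 clock genes had a FAIRE peak within 1000 bp of a start site in each group, and so did 90%, 89.6% and 91% of 8415 genes in Control, Sham and VSG mice. The peak lists hold 42204, 52881 and 44539 peaks, each from 2 mice without a value per mouse, so no test was made, and signals were compared only by rank within a list. Among the highest 5% of its list lay the start site peak of 5 of 10 clock genes in Control and in Sham mice and of 4 in VSG mice, against 19.5%, 22.5% and 21.1% of all genes. The median start site peak of the clock genes stood at the highest 5.02%, 3.91% and 7.15% of the list, and that of all genes at 13.9%, 14.3% and 12.3%.

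Per1 had the highest start site peak of the clock genes, at rank 150 (Control), 343 (Sham) and 389 (VSG). This peak lay at the first start site in Control mice, but at a start site further along the gene in Sham and VSG mice. The peak with the E-boxes printed above was that of rank 150 in Control mice, and stood at rank 494 in Sham and 981 in VSG mice. The start site peak of Dbp stood at rank 329, 529 and 746, and its intron peak with 2 E-boxes and an E′-box at rank 265, 2318 and 526 in Control, Sham and VSG mice. The intron peak of Nr1d1 stood at rank 1203, 1134 and 873, and the highest peak of Nr1d2 at 1605, 1485 and 473, in VSG mice above the start site peak of Dbp. The E-boxes in the intron of Nr1d2 lay in that same peak in Control and VSG mice and in a separate peak of rank 5003 in Sham mice.

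Arntl had its start site peak at rank 624 (Control), 702 (Sham) and 4032 (VSG), above the Nr1d1 and Nr1d2 peaks in Control and Sham but not in VSG mice, while its RNA overlapped between these groups. The start site peak of Per2 stood at rank 2633, 2653 and 2338, Per3 at 3941, 9511 and 4388, and Cry1 at 8414, 11490 and 4970. Clock and Npas2 had the lowest start site peaks, with ranks from 20237 to 48079 for Clock and from 23261 to 25332 for Npas2. A separate peak beyond the end of Npas2 stood at rank 445, 1374 and 302 in Control, Sham and VSG mice. Its centre lay 173820 bases from the nearest start site of Npas2 in Control mice, and whether it belongs to this gene was not tested. Ranks depend on the length of a list, and without values per mouse their spread is unknown.

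**Figure D5:**
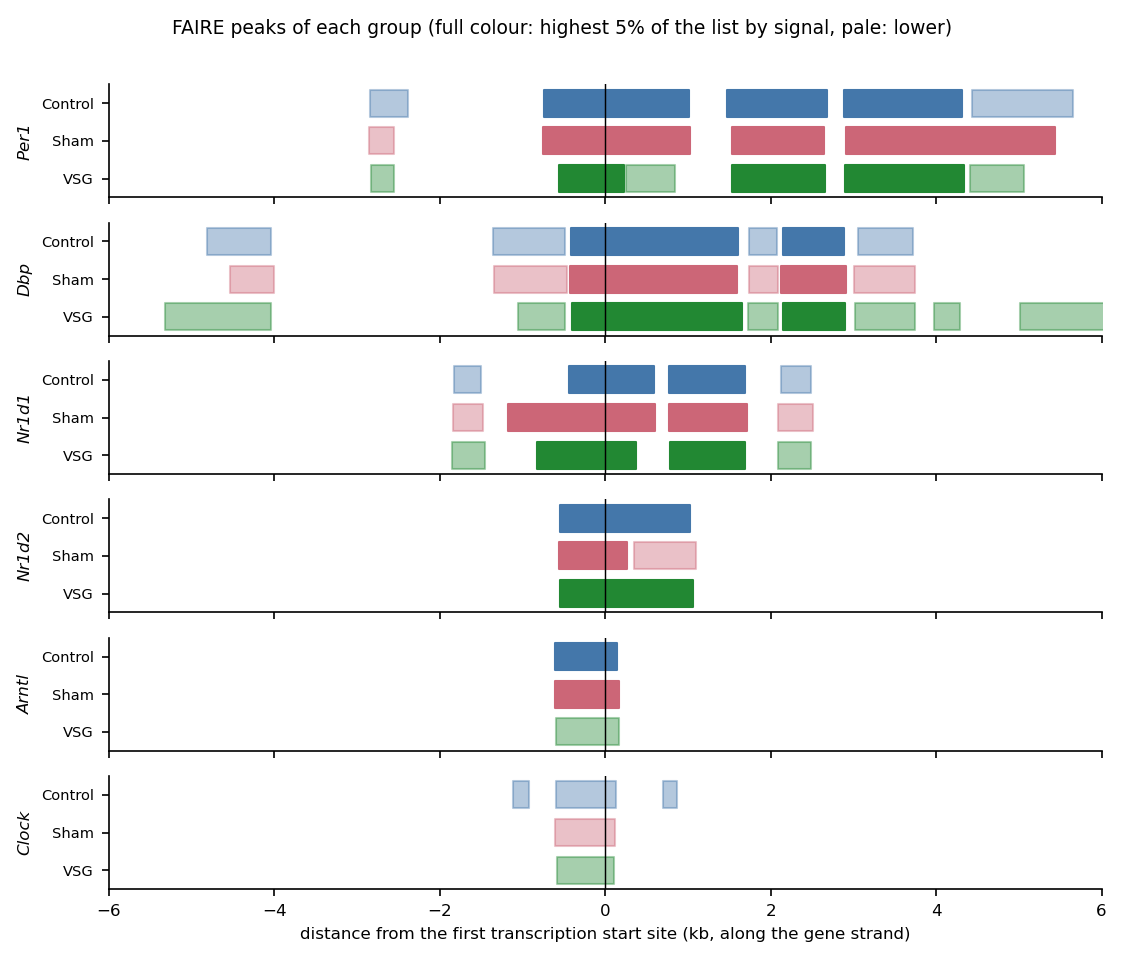
Extent of the FAIRE peaks of each group around the first start site of 6 clock genes, along the gene and in kb, with the peaks in the highest 5% of their list in full colour and the others pale. Per1, Dbp and Nr1d1 have at least 2 peaks of the highest 5% in all groups, the Arntl peak is in that class in Control and Sham but not in VSG mice, and Clock has none.

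Motifs were counted on both strands of the 1000 bases around the first coding start site of each gene. The E-box CACGTG was found in 4 of 10 clock genes (Per1, Cry1, Nr1d1 and Nr1d2) and in 21.6% of 8415 genes, and the E′-box CACGTT in 3 (Per2, Cry1 and Nr1d1) and in 17.9%. The D-box TTATGTAA was found in 2 (Per2 and Per3) and in 2% of genes, and the RORE core TAGGTCA in 2 (Arntl and Dbp) and in 6.12%. The 2 forms of E-box differ in their last base and cannot match at the same place. The E-boxes of the Dbp intron and the D-box of the Nr1d2 intron, at position 517, lie outside this window. A match is a description of the letters and not of a bound site, and these genes were chosen by name as clock genes, among which such motifs are known.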

How the data were processed

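RNA-seq and FAIRE-seq were performed on the same livers of 2 Control, 2 Sham and 2 VSG mice. Per the labels RNA was enriched for poly(A), whereas the study's methods describe depletion of ribosomal RNA. FPKM values per RefSeq transcript and mouse were computed by the authors with Cufflinks after TopHat2 alignment to mm9, and strand was not given in the sources used here. FAIRE peaks with their F-seq signal were deposited by the authors as 1 list per group, after IDR over its 2 mice. The authors' DESeq2 tables of fold changes and p-values and their lists of variable sites were not used.

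Transcripts were matched to symbols through a RefSeq table of GRCm38.p6 (34046 of 34933) and summed per gene. Genes reaching an FPKM of 1 in 2 or more mice were fitted as log2(FPKM + 1) by limma 3.58.1 (R 4.3.3), using all 6 mice, a variance trend and two-sided p-values adjusted by Benjamini-Hochberg over 9869 genes at an FDR of 10%. The fit was tested on simulated data. Mice are the replicates. Start sites were taken from GENCODE vM1 on NCBIM37, with sequences read by pysam 0.24.0. Other steps used Python 3.11.15, pandas 2.3.3, numpy 2.4.6 and matplotlib 3.10.9. The members and lists were chosen with earlier results of these data known. Named genes were the 10 members, genes of the lists, and the 5 genes most and least like Arntl and Dbp by Pearson's r over 6 mice. 1 gene of the lists is not reported here and was left out of their counts.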

Additional observations from a re-analysis of the deposited data

How the results depend on the processing

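The count of 0 called clock genes held in each comparison under every alternative run, with adjusted p from 0.257 (Sham against Control), 0.270 (VSG against Sham) and 0.158 (VSG against Control) upwards. No pseudocount, filter or scaling turned a clock gene's direction. Leaving out 1 mouse at a time did so in these cases: in Sham against Control mice the log2 fold change ranged from -0.0204 to 1.73 for Clock, from -0.16 to 0.42 for Nr1d2 and from -0.31 to 0.88 for Dbp. In VSG against Sham mice it ranged from -0.46 to 0.31 for Clock, from -0.76 to 1.82 for Per1, from -0.73 to 0.27 for Per2, from -0.21 to 0.72 for Cry1 and from -0.32 to 0.71 for Nr1d2, and in VSG against Control mice from -0.0934 to 1.66 for Clock, from -2.51 to 0.0685 for Per1 and from -0.19 to 0.84 for Nr1d2. A group then had 1 mouse, assumed to vary like the others. Over all genes, 28 were called between Sham and Control mice, 64 without a filter, 17 with only these groups in the fit and 0 to 157 with 1 mouse left out. Between VSG and Sham mice 5 were called, 8 with a pseudocount of 0.1 or of 0.5, 0 with only these groups in the fit and 0 to 50 with 1 mouse left out. Between VSG and Control mice 28 were called, and 0 to 34 with 1 mouse left out. With the replicate number as a block, 9, 0 and 10 genes were called in these comparisons, and 0 clock genes. Over all genes tested, the differences between mouse 1 and mouse 2 correlated between groups at 0.12, 0.06 and 0.04. Such values cannot tell whether the numbers pair the mice for a few genes. The difference of day over night genes spanned 0.797 between mice, and 2.56 with a pseudocount of 0.1, 2.36 for Dbp minus Arntl, 2.88 for Nr1d1 minus Arntl, 1.49 with medians and 1.41 with only the genes listed at 0 in no mouse, an alternative chosen after seeing the data. The median range of the clock genes over mice was 2.01, and 2.69 with a pseudocount of 0.1. The causes were not tested. The read numbers are unknown, so no counting error could be given for any FPKM.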

Other observations

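The genes whose levels over the 6 mice were most like those of Arntl and of Dbp were named by Pearson's r of log2(FPKM + 1) among 2833 genes with a mean FPKM of at least 5 and a range of at least 1. With 6 mice and this many genes, high values are found for any gene, and they are given without a test. Most like Arntl were St3gal3 (a sialyltransferase, r = 0.94), Lmna (lamin A/C), Crls1 (cardiolipin synthase), Mon1a and Sf1, and most opposite were Timm50 (import into mitochondria, r = -0.98), Mrpl40, Fam3c, Tfdp1 and Cpsf3. St3gal3 had an FPKM of 27.8 and 30.6 in Control, 19.0 and 27.5 in Sham, and 42.9 and 26.5 in VSG mice, and shared with Arntl its lowest mouse, Sham mouse 1, and its highest, VSG mouse 1.

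Most like Dbp were Pctp (a phosphatidylcholine transfer protein, r = 0.98), Mgst3 (a microsomal glutathione transferase), Cryz, Ociad2 and Akr7a5, and most opposite were Nrg4 (a ligand of the EGF family, r = -0.97), Hacl1, Wsb2, Slc30a1 (a zinc exporter) and Serpina3n. Pctp had an FPKM of 36.2 and 30.2 in Control, 54.9 and 33.1 in Sham, and 53.7 and 66.5 in VSG mice. Serpina3n, an acute phase gene, had an FPKM of 1423 and 1443 in Control, 929 and 2191 in Sham, and 725 and 378 in VSG mice, where Dbp was highest.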
